A study of Mus musculus with 12 samples.

Results

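Mitochondrial ribosomal protein genes were taken as all gene symbols of the count table that start with Mrpl or Mrps followed by a digit, without the pseudogene symbols that end in -ps. The rule found 72 genes among 23621 symbols, of which 43 carry the symbol of the large subunit (Mrpl) and 29 that of the small subunit (Mrps). They were measured by RNA sequencing in 12 libraries of neutrophils from female Balb/c mice aged 8 weeks. LDN (4 libraries) were low-density and HDN (4 libraries) high-density neutrophils, both prepared from peripheral blood of mice that carried liver metastases. Naive (4 libraries, labelled Naïve) were neutrophils from bone marrow and came from mice named only as naive. By its title the study concerned breast cancer, immature LDN and their metabolic flexibility, and its labels name neither the tumour cells used nor the way in which the cells were purified. Low-density neutrophils are those that stay with the mononuclear cells on a density gradient, and high-density neutrophils are those that sink through it.

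The mitochondrial ribosome, or mitoribosome, sits at the inner mitochondrial membrane and translates the few messenger RNAs of the mitochondrial genome, which encode core subunits of the respiratory chain and ATP synthase. Its RNAs are mitochondrial, but all its proteins are encoded in the nucleus, made in the cytosol and imported. Some descend from bacterial ribosomal proteins and others are found only in mitochondria. Neutrophils hold few mitochondria, and their precursors in the marrow hold more.

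Libraries held 23181686 to 26456768 counts in LDN, 20049857 to 30044508 in HDN and 18113922 to 27741885 in Naive. Levels are given as CPM, the counts of a gene scaled to a common TMM-adjusted library size. Each difference is a log2 fold change with its SE, and each adjusted p is that of the quasi-likelihood test of edgeR, adjusted by the Benjamini-Hochberg method over 10604 genes and read against a threshold of 0.05. Whether the libraries in a group stem from different animals is not stated in the labels, and p-values cover only the spread among these libraries, which may be technical. The summed level of 12 neutrophil markers was 173555 to 230282 CPM in LDN, 78559 to 128062 CPM in HDN and 168698 to 200422 CPM in Naive. The hepatocyte genes Alb and Ttr and the haemoglobin genes Hba-a1, Hba-a2, Hbb-bs and Hbb-bt were at 0 in all 12 libraries.

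Promoters of members that lead the comparisons are shown first, together with the promoter of Mrpl17, which holds matches to more than 1 of the motifs searched. Each runs from 250 bases before to 50 bases after the gene's start in RefSeq on GRCm38.p6. Capitals mark matches, on either strand, to GCGCATGCG, the letters of an NRF1 site, to CCGGAAG, those of an ETS family site, or to AAGATGGCG, those of a YY1 site. NRF1, the ETS family factor GABP and YY1 are known as activators of nuclear genes for mitochondrial proteins. Mrpl45 (chr11:97315466-97315765, plus strand) was the member with the largest difference between LDN and HDN. Mrpl52 (chr14:54426659-54426958, plus strand) had the largest difference between LDN and Naive. Mrpl50 (chr4:49521034-49521333, minus strand) and Mrps15 (chr4:126046678-126046977, plus strand) were lower in LDN than in HDN. Mrpl17 lies at chr7:105811038-105811337, minus strand.
Mrpl45: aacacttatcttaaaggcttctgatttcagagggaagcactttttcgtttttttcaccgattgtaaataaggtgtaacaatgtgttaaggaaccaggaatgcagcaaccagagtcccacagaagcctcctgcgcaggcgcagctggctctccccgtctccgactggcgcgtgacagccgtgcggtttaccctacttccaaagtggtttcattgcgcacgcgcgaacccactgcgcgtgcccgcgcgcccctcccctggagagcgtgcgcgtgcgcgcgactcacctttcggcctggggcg
Mrpl52: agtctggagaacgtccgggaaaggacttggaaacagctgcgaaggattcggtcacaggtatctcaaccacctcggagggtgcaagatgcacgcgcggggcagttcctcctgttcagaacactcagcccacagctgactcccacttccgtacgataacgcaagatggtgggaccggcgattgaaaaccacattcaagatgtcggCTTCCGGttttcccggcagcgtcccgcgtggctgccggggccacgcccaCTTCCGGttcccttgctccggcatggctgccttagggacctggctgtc
Mrpl50: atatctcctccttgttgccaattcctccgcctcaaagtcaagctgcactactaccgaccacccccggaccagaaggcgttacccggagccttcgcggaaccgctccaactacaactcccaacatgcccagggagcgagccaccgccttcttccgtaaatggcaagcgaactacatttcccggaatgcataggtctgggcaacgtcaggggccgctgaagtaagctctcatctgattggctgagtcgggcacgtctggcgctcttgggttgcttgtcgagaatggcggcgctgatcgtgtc
Mrps15: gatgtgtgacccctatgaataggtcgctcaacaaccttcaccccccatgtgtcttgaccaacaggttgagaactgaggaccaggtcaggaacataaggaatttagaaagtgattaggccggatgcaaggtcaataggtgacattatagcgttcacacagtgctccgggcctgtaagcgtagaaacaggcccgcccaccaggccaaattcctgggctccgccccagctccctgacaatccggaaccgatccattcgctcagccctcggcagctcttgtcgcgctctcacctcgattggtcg
Mrpl17: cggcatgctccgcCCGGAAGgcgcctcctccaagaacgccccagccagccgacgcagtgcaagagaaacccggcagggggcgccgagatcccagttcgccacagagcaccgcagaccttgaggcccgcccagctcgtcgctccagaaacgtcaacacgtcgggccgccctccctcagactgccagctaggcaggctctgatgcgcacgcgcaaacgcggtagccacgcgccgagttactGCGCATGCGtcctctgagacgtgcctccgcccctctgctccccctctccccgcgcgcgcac
The Mrpl52 promoter held 2 ETS matches, at bases -47 to -41 and 2 to 8 relative to the start, and the Mrpl17 promoter held an NRF1 match at -11 to -3 and an ETS match at -237 to -231. None of the letters searched was found in the windows of Mrpl45, Mrpl50 and Mrps15. Of the 72 members, 63 had an entry, with 69 promoters in all. Of the 69 member promoters, 7 held the NRF1 letters (10.1%), against 1.75% of all 32851 promoters. ETS letters stood in 23 (33.3%, against 8.86% of all promoters) and YY1 letters in 8 (11.6%, against 1.40%). No match to 1 motif shared bases with a match to another. Among members higher in LDN than in HDN, 5 of 14 with an entry held ETS letters, as did 0 of 3 lower members and 18 of 44 that did not pass.

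Mitoribosomal protein transcripts were scarce in all groups. All 72 together took 0.0811% ± 0.00838 of counts in LDN, 0.0834% ± 0.0111 in HDN and 0.0937% ± 0.00342 in Naive (SD, n = 4 each). The median level over members was 7.48 CPM in LDN, 6.29 CPM in HDN and 8.22 CPM in Naive. HDN 4 had the highest share of the HDN libraries, at 0.0986%, and LDN 4 the highest of the LDN libraries, at 0.0902%. The spread between libraries was widest in HDN, where the median coefficient of variation over members was 27.6%, against 17.6% in LDN and 10.3% in Naive.

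A few genes carried much of this signal. Mrpl33, the homologue of bacterial L33, alone held 18.1% of all reads of the members, and Mrpl10, a stalk protein that carries the factor-binding Mrpl12, held 6.06%. Mrpl33 stood at 160.4, 160.3, 182.6 and 156.8 CPM in LDN, at 144.1, 135.2, 157.7 and 105.2 CPM in HDN and at 218.9, 161.8, 155.8 and 143.5 CPM in Naive. These ranges overlapped, and the gene did not pass in any comparison with TMM scaling of all 12 libraries. Against Naive, HDN were lower without HDN 5 (-0.40, adjusted p = 0.0483) or Naive 4 (-0.41, adjusted p = 0.0474). Mrpl33 also passed as lower than Naive in both HDN and LDN with total counts, and with the 20 most abundant genes left out of library sizes. Per kilobase of its main transcript, Mrpl33 stood at 345 CPM in LDN, 284 CPM in HDN and 356 CPM in Naive, while the median member stood at 4.39, 3.25 and 4.70 CPM per kilobase in the same order of groups. On that scale Mrps21, the homologue of bacterial S21, came next in LDN, at 70.4 CPM per kilobase. At the other end, Mrpl23 and Mrps6 fell below the filter on low counts, with 27 and 56 reads in all 12 libraries, and were not tested. Mrpl23, a protein of the exit tunnel rim, had 2 to 4 reads per library in LDN, 0 to 1 in HDN and 2 to 4 in Naive, all close to the floor of 3 reads, which covers counting error only.

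The comparison of LDN with HDN asked how the density fractions of blood from mice with metastases differ. In LDN, 16 of the 70 tested members were higher and 4 lower than in HDN, and 50 did not pass. Passing members made up 28.6% of those tested, while 46.3% of all genes passed, 26% higher and 20.3% lower in LDN. The median log2 fold change was 0.22 over members and 0.02 over all genes tested, with TMM scaling. It was 0.20 over 42 large subunit genes, of which 10 were higher and 1 lower, and 0.34 over 28 small subunit genes, of which 6 were higher and 3 lower. The libraries of LDN and HDN did not overlap for 18 members, 14 of them higher in LDN, against 39.2% of all genes. In bulk RNA, fewer cells of a type and less of a transcript per cell cannot be told apart. The summed neutrophil markers and the 20 most abundant genes moved with these groups. The sum was carried by S100a8, S100a9 and Ltf, which averaged 74348, 80293 and 12970.5 CPM in LDN, against 35725, 44708 and 696 CPM in HDN. Csf3r, Cxcr2 and Retnlg did not share this direction and averaged 3962, 2374 and 6553 CPM in LDN, against 8660, 2952 and 6621 CPM in HDN. These 20 genes held 25.4% ± 1.29 of counts in LDN and 17.0% ± 1.50 in HDN (SD, n = 4 each), and the part of these genes and markers in the differences was not tested.

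Summed markers of other cell types were apart between some groups and overlapped between others. For 7 T and NK cell markers the summed level was 33.8 to 48.1 CPM in LDN, 3.36 to 17.9 CPM in HDN and 196 to 270 CPM in Naive, nearly all of it Cd3d, while Cd3e averaged 0.718, 0.535 and 0.0876 CPM in these groups. For 7 eosinophil and basophil markers it was 14.1 to 23.2 CPM in LDN, 39.5 to 84.4 CPM in HDN and 14.3 to 64.6 CPM in Naive. LDN and HDN did not overlap in these sums. Siglecf made up most of the latter sum in LDN and HDN, at means of 17.6 and 63.1 CPM. Prg2, Epx and Mcpt8 went the other way, at 0.478, 0.144 and 0.346 CPM in LDN against 0.170, 0 and 0.0375 CPM in HDN. Il5ra, Fcer1a and Cpa3 had 3, 3 and 7 reads in all 12 libraries. The sum of 6 B and plasma cell markers was 1.40 to 5.82 CPM in LDN, 0.496 to 2.06 CPM in HDN and 17.1 to 45.4 CPM in Naive. For 9 monocyte and macrophage markers the sum was 496 to 654 CPM in LDN, 436 to 688 CPM in HDN and 650 to 877 CPM in Naive, but single markers differed in direction. Fn1 averaged 176 CPM in LDN, 12.6 CPM in HDN and 8.60 CPM in Naive. Ly6c2 averaged 64.0 CPM in LDN, 13.8 CPM in HDN and 359.7 CPM in Naive. Csf1r averaged 122 CPM in LDN, 367 CPM in HDN and 319 CPM in Naive. For 10 erythroid and platelet markers the sum was 3.03 to 3.51 CPM in LDN, 6.28 to 8.28 CPM in HDN and 4.09 to 5.71 CPM in Naive, and for 6 liver and epithelial markers 0 to 1.12, 0.990 to 7.79 and 0.184 to 0.268 CPM. The part of all these markers in the member differences was not tested.

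Among large subunit genes, Mrpl45 differed most. It encodes a mitochondria-specific protein near the exit of the nascent chain tunnel that helps to hold the mitoribosome at the inner membrane. Mrpl45 stood at 33.1, 41.4, 36.1 and 41.8 CPM in LDN and at 7.51, 7.44, 5.79 and 4.47 CPM in HDN. The lowest LDN library lay far above the highest HDN library, and the log2 fold change was 2.60 ± 0.17 (adjusted p = 4.02e-07). Mrpl24, a further protein of the tunnel exit and the homologue of bacterial L24, stood at 32.6 to 36.0 CPM in LDN and 34.5 to 40.9 CPM in HDN (-0.09 ± 0.10, adjusted p = 0.495).

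**Figure D1:**
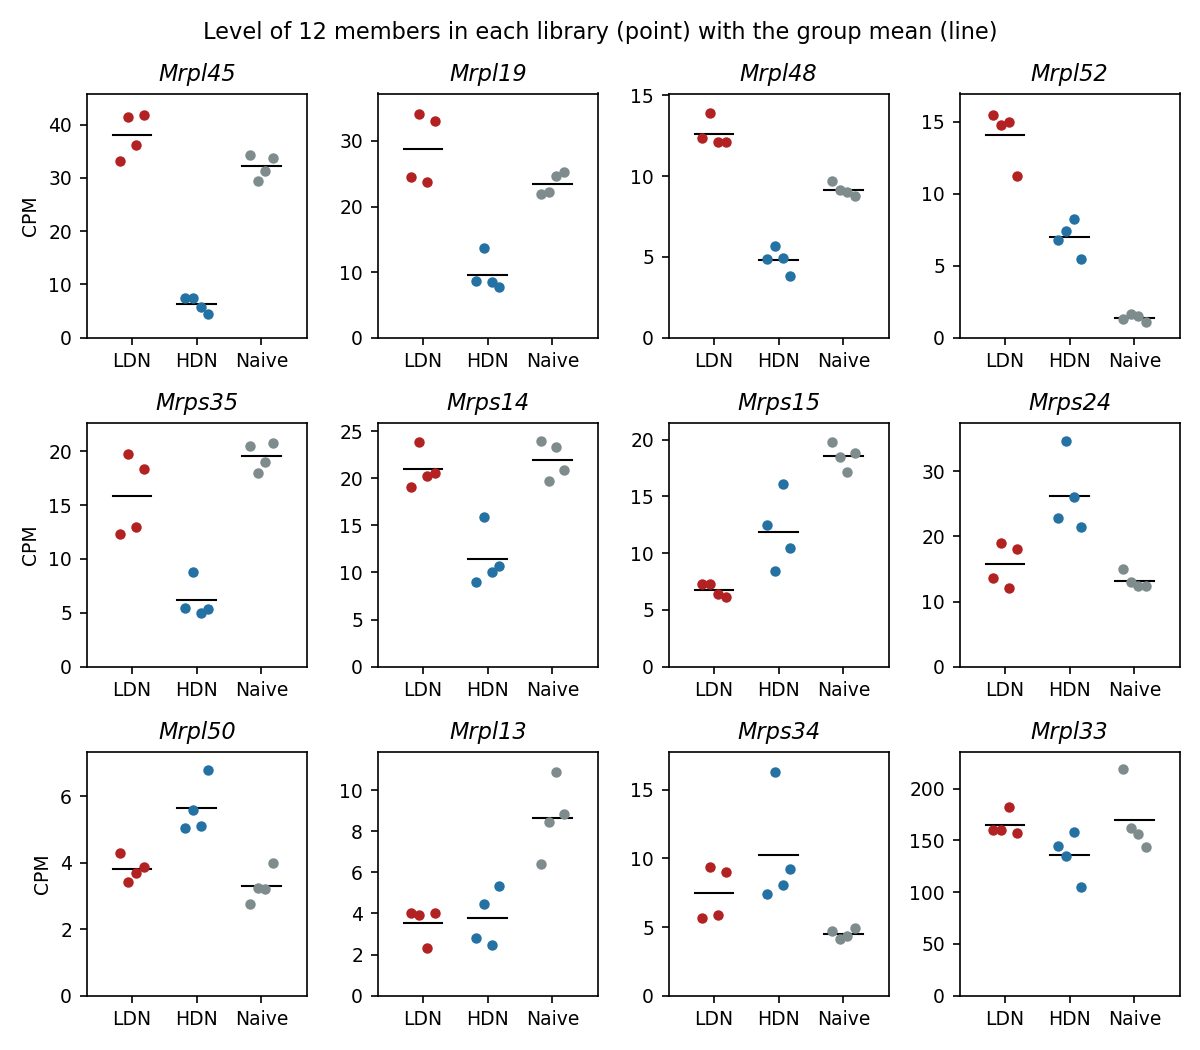
Level in CPM after TMM scaling (vertical axis, from 0) of 12 mitoribosomal protein genes in each LDN, HDN and Naive library (points), with the mean of 4 libraries as a line. Mrpl45 lies between 33.1 and 41.8 CPM in LDN, between 4.47 and 7.51 CPM in HDN and between 29.4 and 34.3 CPM in Naive, whereas Mrpl52 runs down from LDN over HDN to Naive and Mrps15 runs up.

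Mrpl19, the homologue of bacterial L19, followed at 24.4, 34.1, 23.7 and 33.0 CPM in LDN and at 8.63, 13.7, 8.53 and 7.67 CPM in HDN (1.58 ± 0.20, adjusted p = 3.18e-05). HDN 4 was the highest HDN library, still below every LDN library. Mrpl48, a mitochondria-specific protein of the central protuberance, was at 12.4, 13.9, 12.1 and 12.1 CPM in LDN and at 4.85, 5.66, 4.95 and 3.82 CPM in HDN (1.39 ± 0.15, adjusted p = 9.78e-06). Mrpl52, which lies in the same part of the subunit, was at 15.4, 14.8, 15.02 and 11.2 CPM in LDN and at 6.79, 7.41, 8.22 and 5.46 CPM in HDN (1.02 ± 0.18, adjusted p = 0.000431). In each of these genes the groups did not overlap. Mrpl3, the homologue of bacterial L3, was at 6.39, 10.4, 5.77 and 6.80 CPM in LDN and at 2.91, 5.82, 2.82 and 3.28 CPM in HDN (0.98 ± 0.26, adjusted p = 0.00832). Here HDN 4 lay just above LDN 5. The only large subunit gene that was lower in LDN was Mrpl50, a mitochondria-specific protein, at 4.30, 3.41, 3.68 and 3.86 CPM in LDN and at 5.04, 5.59, 5.10 and 6.79 CPM in HDN (-0.56 ± 0.18, adjusted p = 0.0187). All LDN libraries lay below all HDN libraries.

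Small subunit genes were led by Mrps35, a mitochondria-specific protein. Mrps35 stood at 12.3, 19.7, 12.97 and 18.4 CPM in LDN and at 5.48, 8.84, 4.95 and 5.34 CPM in HDN (1.36 ± 0.21, adjusted p = 0.000194). Mrps14, the homologue of bacterial S14, was at 19.1, 23.8, 20.3 and 20.5 CPM in LDN and at 8.97, 15.9, 10.1 and 10.7 CPM in HDN (0.87 ± 0.17, adjusted p = 0.00124). In both genes HDN 4 was the highest HDN library, and the groups did not overlap. The Mrps9 mean, for the homologue of bacterial S9, was 13.7 CPM in LDN libraries and 8.62 CPM in HDN libraries (0.66 ± 0.19, adjusted p = 0.0120), a call that ended without LDN 4 (adjusted p = 0.0554). Mrps25, a mitochondria-specific protein, ranged over 3.68 to 4.52 CPM in LDN and 2.37 to 3.15 CPM in HDN (0.66 ± 0.18, adjusted p = 0.00825). The lower members were Mrps15, Mrps24 and Mrps28. Mrps15, the homologue of bacterial S15, stood at 7.26, 7.29, 6.44 and 6.14 CPM in LDN and at 12.5, 8.42, 16.1 and 10.4 CPM in HDN (-0.80 ± 0.18, adjusted p = 0.00293). Mrps24, the mitochondrial counterpart of bacterial S3, stood at 13.6, 19.0, 12.1 and 18.1 CPM in LDN and at 22.8, 34.6, 26.0 and 21.4 CPM in HDN (-0.74 ± 0.19, adjusted p = 0.00585). For both, every LDN library was below every HDN library. Mrps28 was scarce and averaged 0.702 CPM in LDN against 1.62 CPM in HDN (-1.19 ± 0.27, adjusted p = 0.00290), and is named because it completes the 4 lower members, after its values were seen.

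**Figure D2:**
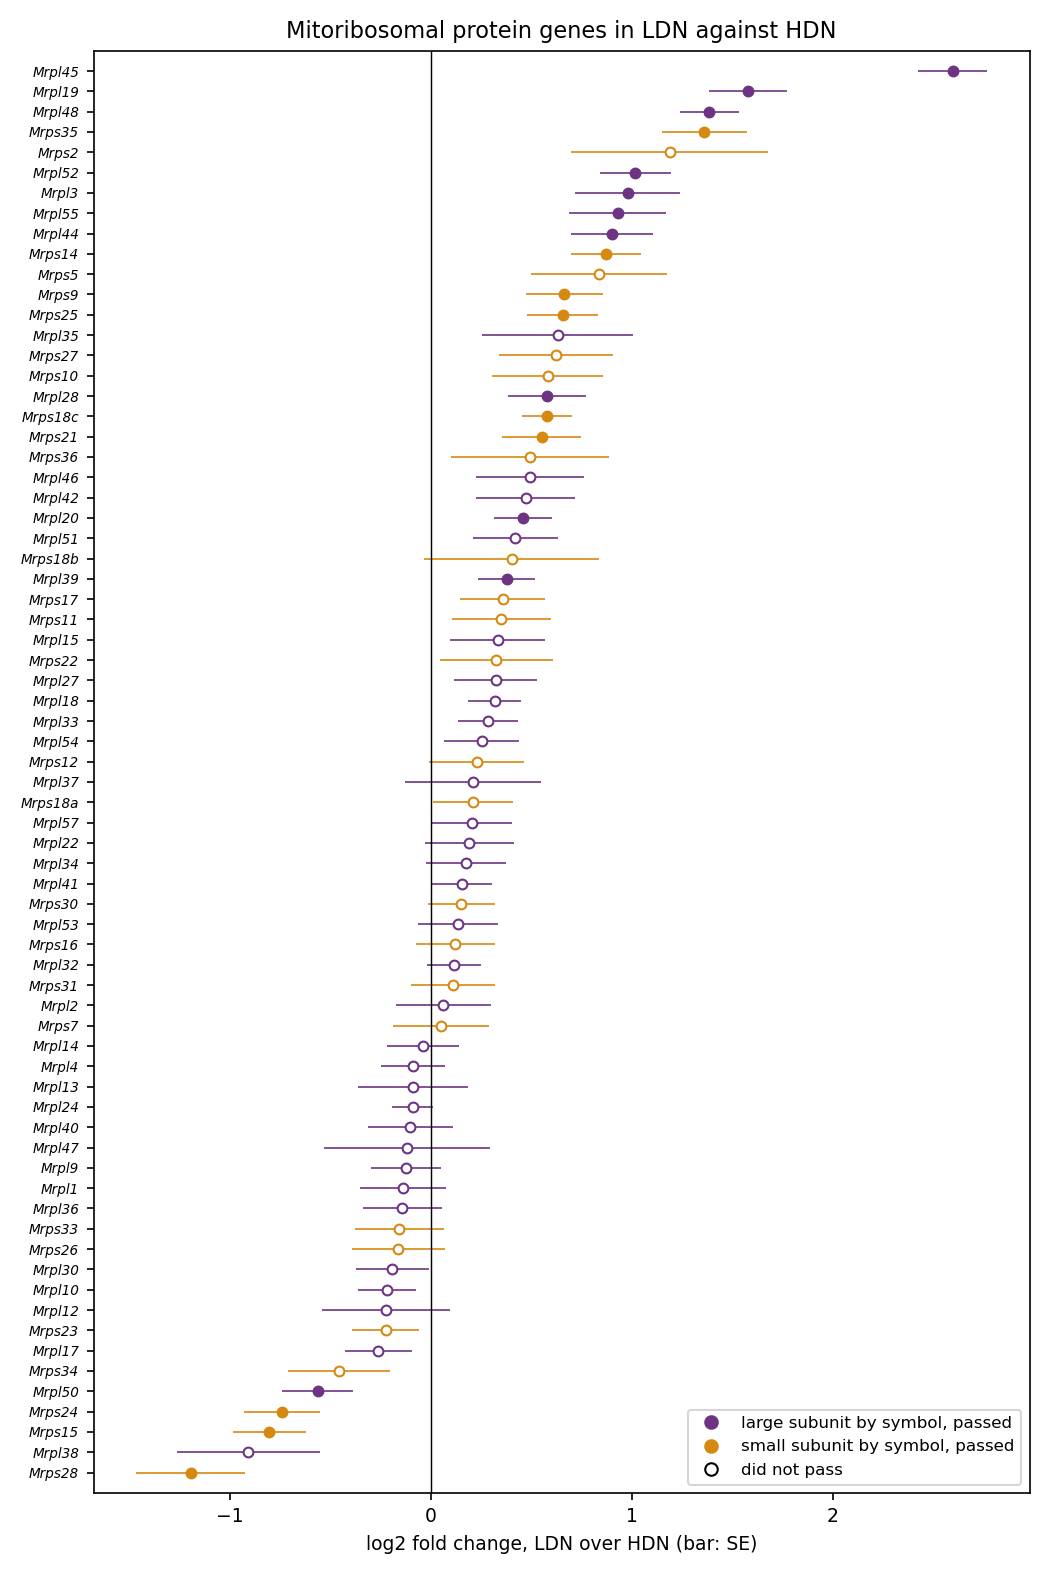
Log2 fold change of LDN over HDN (horizontal axis) with its SE (bar) for the 70 tested members, sorted by size. Filled points passed the test, purple for large and orange for small subunit symbols, and they run from -1.19 for Mrps28 to 2.60 for Mrpl45.

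The remaining 6 higher members, Mrpl20, Mrpl28, Mrpl39, Mrpl44, Mrpl55 and Mrps21, had log2 fold changes of 0.38 to 0.93. Mrpl44 kept its call under every alternative tried, and Mrpl55 lost it with total counts. The others were less stable. Mrpl39 lost its call with RLE scaling, with no filter, in the fit of only LDN and HDN, and without any library of these groups but HDN 4. Mrpl28 lost it in the fit of only LDN and HDN and without LDN 4, LDN 7, HDN 3, HDN 5 or HDN 7. Mrps21 lost it without any LDN library, HDN 3 or HDN 7, and Mrpl20 without LDN 4, LDN 5 or HDN 3. HDN 4 and LDN 4 weighed on the count in opposite ways. Without HDN 4, 27 members were higher and 4 lower in LDN, where 48.2% of all genes passed. The median was then 0.42 over members, 0.37 over large and 0.51 over small subunit genes. Without LDN 4, 11 were higher and 4 lower, where 42.7% of all genes passed, and these medians were 0.085, 0.085 and 0.078. The large subunit median was also 0.11 without LDN 7, 0.12 without HDN 3 and 0.13 without HDN 7. With the replicate number, taken to pair LDN and HDN libraries, as a block, 20 were higher and 6 lower. In that fit 57.2% of all genes passed, against 40.7% in the fit of only LDN and HDN without the block. The members called with the block included all 20 of the main fit, and Mrpl38, Mrpl46, Mrpl51, Mrps2, Mrps34 and Mrps5 were added. The balance of calls depended on the scaling. With the 20 most abundant genes left out of library sizes, 12 members were higher and 6 lower in LDN, where 47.4% of all genes passed. With total counts alone 7 were higher and 11 lower, where 51.5% of all genes passed. Total counts moved the median of all genes by -0.30. Calls of Mrpl3, Mrpl20, Mrpl28, Mrpl39, Mrps9, Mrps18c, Mrps21 and Mrps25 ended with total counts, and those of Mrpl20, Mrpl28, Mrpl39 and Mrps9 also without the 20 genes. Relative to the median of all genes, that of the members stood 0.20 higher with TMM scaling and 0.21 higher with each of these scalings.

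Overlap with neighbouring genes limits some values, because the strand setting of the counting is not given in the sources used here. In GENCODE M21, 22 of the 72 members share exon bases with another gene. Mrpl48 shares 8.60% of its exon bases with Rab6a on the opposite strand, which had 58485 reads and was itself higher in LDN than in HDN (0.51 ± 0.14, adjusted p = 0.00947). Mrps25 shares 58.2% with Nr2c2 (12945 reads, -0.13 ± 0.24, adjusted p = 0.673). Mrpl19 shares 39.2% with Gcfc2, which had only 88 reads against 5689 of Mrpl19. Mrpl24, which did not pass, shares 38.2% with Rrnad1 on the opposite strand, a gene with 2770 reads that was lower in LDN than in HDN (-0.53 ± 0.18, adjusted p = 0.0242). Mrps18b shares 59.1% with Gm16279 on the opposite strand. On the same strand, Mrps18c shares 18.5% with Gm43511 and Mrpl33 shares 22.4% with Gm43809. These Gm genes have no counts here, and the part of such overlap in the levels per kilobase was not tested. Mrpl45, Mrpl52, Mrpl50, Mrps35, Mrps14, Mrps15 and Mrps24 share no exon base with another annotated gene.

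HDN were set against Naive to compare blood neutrophils of mice with metastases with marrow neutrophils of naive mice, so tissue and tumour changed together. The columns of LDN and HDN also carry a date-like tag that Naive columns lack, so a library batch cannot be told apart from these groups. In HDN, 11 members were higher and 27 lower than in Naive, and 32 did not pass. Passing members were 54.3% of those tested, against 59.8% of all genes, of which 30% were higher and 29.9% lower. The median log2 fold change was -0.37 over members and 0.04 over all genes. It was -0.29 over large subunit genes (7 higher, 16 lower) and -0.43 over small subunit genes (4 higher, 11 lower). The large subunit median was -0.13 without Naive 4 and -0.19 without HDN 5. The groups did not overlap for 30 members, 21 of them lower in HDN, where 53.3% of all genes did not overlap. With the 20 most abundant genes left out of library sizes, which moved the median of all genes by -0.15, 7 members were higher and 35 lower. In that setting 58.1% of all genes passed.

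Genes that led LDN over HDN were also far apart here, and these comparisons share the HDN libraries. Mrpl45 stood at 4.47 to 7.51 CPM in HDN, against 34.3, 29.4, 31.2 and 33.7 CPM in Naive (-2.35 ± 0.17, adjusted p = 5.92e-08). Mrpl19 was at 7.67 to 13.7 CPM in HDN and at 21.9, 22.2, 24.6 and 25.3 CPM in Naive (-1.28 ± 0.19, adjusted p = 6.48e-05). Mrps35 was at 4.95 to 8.84 CPM in HDN and at 20.5, 17.97, 19.0 and 20.8 CPM in Naive (-1.67 ± 0.21, adjusted p = 1.38e-05). In all of these every HDN library lay below every Naive library. The same held for Mrps14, at 8.97 to 15.9 CPM in HDN and 19.7 to 23.9 CPM in Naive (-0.94 ± 0.17, adjusted p = 0.000372). Mrpl15, the homologue of bacterial L15, was at 2.52 to 4.74 CPM in HDN and 7.53 to 9.25 CPM in Naive (-1.31 ± 0.24, adjusted p = 0.000286). Mrpl37, a mitochondria-specific protein, was at 1.11 to 3.56 CPM in HDN and 5.28 to 6.30 CPM in Naive (-1.31 ± 0.33, adjusted p = 0.00384). Both were without overlap between the groups. The scarce Mrps2 and Mrps5, homologues of bacterial S2 and S5 named after their values were seen, averaged 0.373 and 0.433 CPM in HDN, against 2.03 and 2.23 CPM in Naive, with log2 fold changes of -2.39 ± 0.47 and -2.33 ± 0.32 (adjusted p = 0.000603 and 2.59e-05).

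Mrpl13, the homologue of bacterial L13, was at 2.81, 4.48, 2.47 and 5.34 CPM in HDN and at 6.38, 8.45, 10.9 and 8.84 CPM in Naive (-1.19 ± 0.27, adjusted p = 0.00190). It shares 27.0% of its exon bases with Mtbp on the opposite strand, a gene with 508 reads that was lower in HDN too (-3.42 ± 0.36, adjusted p = 2.12e-06). Mrps15 was at 8.42 to 16.1 CPM in HDN and 17.1 to 19.8 CPM in Naive (-0.65 ± 0.18, adjusted p = 0.00680), without overlap. The call of Mrps9 (-0.55 ± 0.19, adjusted p = 0.0224) ended without HDN 3 (0.0672), HDN 5 (0.0703) or Naive 4 (0.0677). Mrps26, a mitochondria-specific protein, was at 7.56 to 14.3 CPM in HDN and 13.7 to 17.0 CPM in Naive (-0.59 ± 0.23, adjusted p = 0.0388). HDN 4 lay within the Naive range, and the call held without HDN 4 but ended without any other library of these groups (adjusted p = 0.0516 to 0.111).

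Members higher in HDN were led by Mrpl52, at 6.79, 7.41, 8.22 and 5.46 CPM in HDN against 1.30, 1.62, 1.47 and 1.11 CPM in Naive (2.33 ± 0.20, adjusted p = 2.38e-07). Mrps34, a mitochondria-specific protein, stood at 7.42, 16.3, 8.07 and 9.20 CPM in HDN and 4.74, 4.10, 4.32 and 4.90 CPM in Naive (1.19 ± 0.26, adjusted p = 0.00140). Mrps24 was at 21.4 to 34.6 CPM in HDN and 12.3 to 15.1 CPM in Naive (0.99 ± 0.19, adjusted p = 0.000456). None of these overlapped, and HDN 4 was the highest library for Mrps34 and Mrps24. Mrpl50 was at 5.04 to 6.79 CPM in HDN and 2.75 to 3.99 CPM in Naive (0.77 ± 0.18, adjusted p = 0.00185). Mrpl54, also found only in mitochondria, was at 5.25 to 7.92 CPM in HDN and 3.64 to 4.02 CPM in Naive (0.74 ± 0.19, adjusted p = 0.00455). Mrpl4, the homologue of bacterial L4, was at 18.8 to 25.4 CPM in HDN and 11.9 to 15.8 CPM in Naive (0.67 ± 0.16, adjusted p = 0.00283). All 3 were without overlap. The calls of Mrpl17 (0.52 ± 0.17, adjusted p = 0.0152) and Mrps33 (0.62 ± 0.22, adjusted p = 0.0272) rested on fewer of the fits. Mrpl17 failed without Naive 3 (0.0548), and Mrps33 failed without HDN 4 (0.0715), Naive 1 (0.0701) or Naive 2 (0.0839). Calls of Mrpl17 and Mrps33 also ended with the 20 most abundant genes left out of library sizes, and those of Mrps9 and Mrps26 with total counts.

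The comparison of LDN with Naive shares its tissue, tumour and tag limits with the one above. In LDN, 6 members were higher and 13 lower than in Naive, and 51 did not pass, so 27.1% passed where 54.2% of all genes did, 27.4% higher and 26.8% lower. The median was 0.03 over members and 0.01 over all genes, and 0.06 over large and -0.07 over small subunit genes, of which 8 and 5 were lower. The large subunit median turned to -0.23 with the 20 most abundant genes left out of library sizes and to -0.17 with total counts, scalings that moved the median of all genes by -0.29 and -0.23. Under these scalings 2 members were higher and 18 lower, and 2 were higher and 16 lower, while 54.9% and 53.1% of all genes passed. Without LDN 4, 3 members were higher and 14 lower, where 51.9% of all genes passed. The medians were then -0.087 over members, -0.025 over large and -0.25 over small subunit genes. The median over members was also below 0 without LDN 7, Naive 1 or Naive 2 (-0.037 to -0.00058). The groups did not overlap for 20 members, 8 higher and 12 lower in LDN, against 55.3% of all genes.

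Mrpl52 had the largest difference of any member in the series. It stood at 15.4, 14.8, 15.02 and 11.2 CPM in LDN, 10.2-fold above its Naive level (3.35 ± 0.20, adjusted p = 2.08e-08). Mrpl54 was at 6.10, 9.18, 6.18 and 8.70 CPM in LDN and 3.86, 4.02, 3.66 and 3.64 CPM in Naive (0.99 ± 0.19, adjusted p = 0.000664). Mrpl4 was at 16.3 to 24.5 CPM in LDN and 11.9 to 15.8 CPM in Naive (0.58 ± 0.16, adjusted p = 0.00808). In these genes no LDN library fell into the Naive range. Of the other higher members, Mrpl48 (0.46 ± 0.14, adjusted p = 0.0151) lost its call without LDN 4 (0.0575). The calls of Mrps18c (0.37 ± 0.13, adjusted p = 0.0224) and Mrps34 (0.73 ± 0.26, adjusted p = 0.0300) depended on several libraries. Mrps18c ended without LDN 3 (0.0629), LDN 4 (0.0540), LDN 5 (0.0938), Naive 1 (0.0646) or Naive 2 (0.0900). Mrps34 ended without LDN 4 (0.104), LDN 7 (0.104), Naive 1 (0.0611), Naive 2 (0.0822) or Naive 3 (0.0654). Mrpl4, Mrpl48, Mrps18c and Mrps34 also failed with total counts and with the 20 most abundant genes left out of library sizes.

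Among small subunit genes whose log2 CPM averaged 1 or more, Mrps15 was furthest below Naive. It stood at 7.26, 7.29, 6.44 and 6.14 CPM in LDN and 19.8, 18.4, 17.1 and 18.8 CPM in Naive (-1.45 ± 0.18, adjusted p = 1.88e-05). Mrpl13 was at 4.01, 3.92, 2.30 and 4.00 CPM in LDN, below its Naive range of 6.38 to 10.9 CPM (-1.27 ± 0.27, adjusted p = 0.00142). The scarcer Mrps5 averaged 0.782 CPM in LDN, against 2.23 CPM in Naive (-1.50 ± 0.31, adjusted p = 0.000975). Mrpl57, a short mitochondria-specific protein, was at 6.60 to 10.4 CPM in LDN and 14.4 to 18.1 CPM in Naive (-0.98 ± 0.20, adjusted p = 0.000966). None of these overlapped. Mrpl15 was at 3.22 to 5.63 CPM in LDN and 7.53 to 9.25 CPM in Naive (-0.98 ± 0.23, adjusted p = 0.00302). Mrpl37 (-1.10 ± 0.33, adjusted p = 0.0126) and Mrps26 (-0.75 ± 0.23, adjusted p = 0.0137) were lower in LDN as well. The stalk gene Mrpl12, which encodes the homologue of bacterial L7/L12, was at 2.51, 3.00, 1.28 and 2.79 CPM in LDN and 3.98, 3.91, 4.68 and 4.34 CPM in Naive (-0.81 ± 0.32, adjusted p = 0.0431). That call ended without LDN 3 (0.0581), LDN 5 (0.0809), Naive 2 (0.0616), Naive 3 (0.0916) or Naive 4 (0.0783).

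Across the groups, members fell into different orders of their means. For 23 of 70 members the order was Naive, LDN, HDN from high to low, as for Mrps35 and Mrps14. For 18 it was LDN, Naive, HDN, as for Mrpl45, Mrpl19 and Mrpl48, and for 14 it was HDN, LDN, Naive, as for Mrps34. Over all genes these orders made up 22.6%, 12.2% and 21.9%. The other 3 orders held 15 members together, among them Mrpl52, at LDN, HDN, Naive, and Mrps15, at Naive, HDN, LDN.

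Genes of particular roles were taken next. The Mrps18 family holds 3 paralogous genes related to that of bacterial S18, of which Mrps18c encodes the protein at the S18 site of the small subunit. Mrps18c stood at 23.5, 23.6, 26.2 and 21.9 CPM in LDN and at 15.2, 18.4, 15.4 and 14.9 CPM in HDN (0.58 ± 0.13, adjusted p = 0.00216), without overlap. Mrps18a, whose protein sits in the large subunit in mammalian structures, averaged 7.99 CPM in LDN, 6.90 CPM in HDN and 8.86 CPM in Naive and did not pass with TMM scaling of all libraries. Mrps18b was scarce, at 0.695 CPM in LDN, 0.515 CPM in HDN and 1.02 CPM in Naive, and did not pass either. For all 3 paralogues HDN 4 was the highest HDN library. Without HDN 4, Mrps18a (-0.57, adjusted p = 0.0104) and Mrps18b (-1.38, adjusted p = 0.0134) were lower in HDN than in Naive. Per kilobase, Mrps18c stood at 37.3 CPM in LDN, 25.002 CPM in HDN and 28.9 CPM in Naive, above Mrps18a at 9.04, 7.80 and 10.0 CPM and Mrps18b at 0.644, 0.478 and 0.943 CPM in these groups.

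Mrps12, the homologue of the decoding protein S12, was at 7.09 ± 1.91 CPM in LDN, 6.04 ± 1.93 CPM in HDN and 4.84 ± 0.460 CPM in Naive (SD, n = 4 each) and did not pass in the fit of all libraries. The stalk base gene Mrpl10 averaged 49.3 CPM in LDN, 57.4 CPM in HDN and 48.1 CPM in Naive and did not pass with TMM scaling of all libraries. Without HDN 7 it was higher in HDN than in Naive (0.37, adjusted p = 0.0252). Mrpl12 at 2.78 CPM in HDN lay below its Naive mean of 4.23 CPM without passing, and passed without HDN 4 (-0.93, adjusted p = 0.0119). Mrps30, placed in the large subunit in mammalian structures, stood at 5.57 CPM in LDN, 5.01 CPM in HDN and 5.36 CPM in Naive. Mrps36, now known as a subunit of the oxoglutarate dehydrogenase complex, stood at 0.824, 0.580 and 0.872 CPM in these groups. Neither passed in any of the 3 comparisons.

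The subunits were also compared with each other. The ratio of summed large to summed small subunit counts was 2.76 ± 0.177 in LDN, 2.62 ± 0.163 in HDN and 2.52 ± 0.106 in Naive (SD, n = 4 each), and the ranges of the groups overlapped. The ratio in LDN ran from 2.54 to 2.96, in HDN from 2.40 to 2.76 and in Naive from 2.40 to 2.66. Within LDN and within HDN it was lowest in LDN 4 and in HDN 4. In each pair of libraries with the same number it was higher in LDN, at 2.82 in LDN 3 and 2.76 in HDN 3, 2.54 in LDN 4 and 2.40 in HDN 4, 2.96 in LDN 5 and 2.73 in HDN 5, and 2.72 in LDN 7 and 2.58 in HDN 7. Without Mrpl33 the ratio was 1.98 to 2.12 in LDN, 1.92 to 2.01 in HDN and 1.84 to 1.88 in Naive, and it was again higher in LDN in all 4 pairs. On that measure, looked at after the values were seen, LDN and HDN overlapped while every library of both lay above every Naive library. Without the most abundant member of each subunit, it was 2.27 to 2.52 in LDN, 2.12 to 2.30 in HDN and 2.05 to 2.19 in Naive, where LDN did not overlap with Naive. No test was made of these ratios. Members with a bacterial homologue and mitochondria-specific members each passed for 28.6% in LDN against HDN, or 12 of 42 and 8 of 28 tested, and their medians were 0.20 and 0.29. In these counts the S18 paralogue Mrps18a (unified name mL66) stands with the bacterial homologues and Mrps18b (mS40) with the mitochondria-specific members. Both unified names are of the mitochondria-specific kind, so these paralogues were classed unlike each other. Neither passed in LDN against HDN, and the shares were not recounted with both in the same class.

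**Figure D3:**
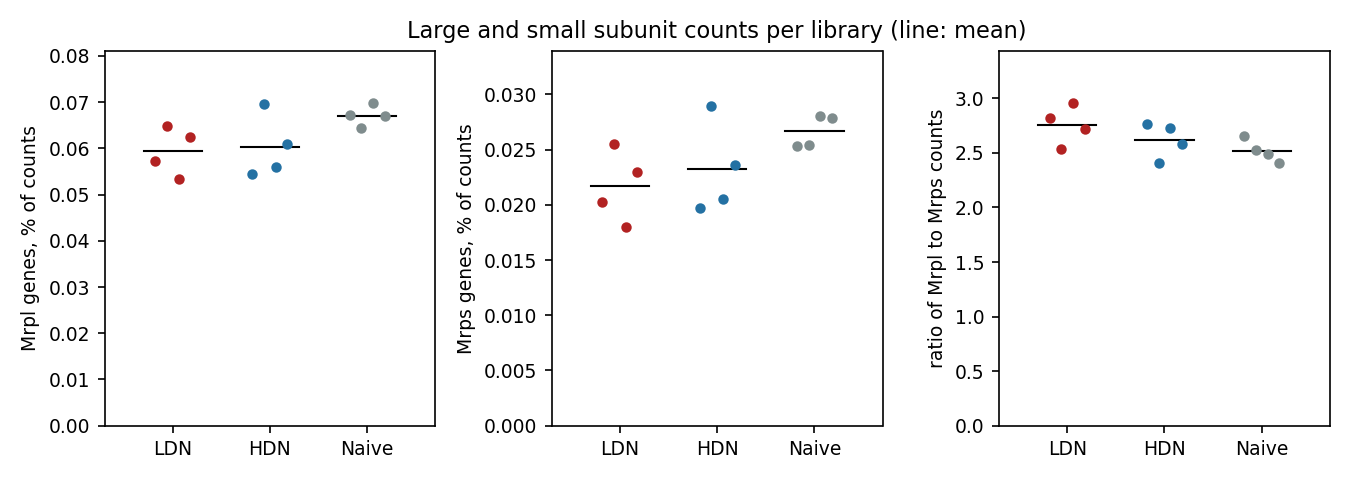
Summed counts of large subunit (Mrpl, left) and small subunit (Mrps, middle) genes as a percentage of all counts, and their ratio (right), in each LDN, HDN and Naive library (points), with the mean as a line. The ratio lies between 2.40 and 2.96 in all libraries, and the Mrpl share averages 0.0594% in LDN, 0.0602% in HDN and 0.0671% in Naive.

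Other genes of mitochondrial translation were read beside the members. Of 7 tested mitoribosomal proteins under other symbols, Ict1, a peptidyl-tRNA hydrolase built into the large subunit, was higher in LDN than in HDN (0.88 ± 0.31, adjusted p = 0.0346), with overlapping groups. No other gene of that list passed, so 14.3% were higher and 0% lower, against 26% and 20.3% of all genes. Of 26 assembly and ribosomal RNA modification genes, 7 were higher and 3 lower in LDN. That is 26.9% and 11.5%, against 26% and 20.3% of all genes, so the higher share lay close to that of all genes. The higher ones were led by Mtg1, a GTPase of large subunit assembly (1.70), C1qbp, a matrix protein needed for mitochondrial translation (1.60), and Eral1, a chaperone of the small subunit RNA (1.25). Mrm1, a ribosomal RNA methyltransferase (-0.99), Mettl17, a small subunit assembly factor (-0.88), and Mtg2, a GTPase of large subunit assembly (-0.44), were lower. Of 13 translation factors, Guf1 (1.51), Gfm1, the elongation factor G1 (0.61), and Slirp, a partner of the RNA-binding protein Lrpprc (0.57), were higher, or 23.1% against 26% of all genes. Against Naive, assembly genes were higher for 3 and lower for 9 in LDN, or 11.5% and 34.6% against 27.4% and 26.8% of all genes. In HDN against Naive they were higher for 5 and lower for 11, or 19.2% and 42.3% against 30% and 29.9% of all genes.

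Mitochondrial aminoacyl-tRNA synthetases and amidotransferase subunits, which charge the tRNAs that mitoribosomes use, divided in LDN against HDN. Of 19 tested, Sars2 (1.66) and Gatc (1.20) were higher, and 4 were lower, led by Mars2 (-1.51), Cars2 (-0.80) and Tars2 (-0.72). These are 10.53% higher and 21.1% lower, against 26% and 20.3% of all genes. Of 8 genes of mitochondrial DNA and transcription, the elongation factor gene Tefm (1.18) and the single-strand binding protein gene Ssbp1 (0.45) were higher. Polg2, the accessory polymerase subunit (-1.05), and Polrmt, the RNA polymerase (-0.97), were lower. Each direction held 25% of the list, against 26% higher and 20.3% lower of all genes. Of 10 RNA processing genes only Hsd17b10, a subunit of mitochondrial RNase P, passed, at 30.9 ± 3.95 CPM in LDN and at 11.7 ± 2.22 CPM in HDN (1.40 ± 0.16, adjusted p = 1.54e-05, SD with n = 4 each). That is 10% higher and 0% lower, against 26% and 20.3% of all genes. Among 12 regulators, Ppargc1b, a coactivator of mitochondrial genes, was higher (1.93) at under 1 CPM, and the protease gene Clpp was lower (-1.02). Each is 8.33% of the list, below the 26% higher and 20.3% lower of all genes.

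The cytosolic ribosome and the respiratory chain showed larger shares of passing genes in LDN against HDN. Of 83 tested cytosolic ribosomal protein genes, 67 were higher, or 80.7%, with a median of 0.73, and of 73 nuclear-encoded respiratory chain genes, 49 were higher, or 67.1%, and 2 lower, with a median of 0.54, where 26% of all genes were higher. The median over mitoribosomal members, 0.22, lay below both. In HDN against Naive the medians were 0.36 for cytosolic ribosomal proteins and -0.26 for the respiratory chain, beside -0.37 for the members. In LDN against Naive they were 1.21 and 0.24, beside 0.03. Differences between these lists were not tested, and the 15 mitochondrially encoded genes listed were not analysed here.

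**Figure D4:**
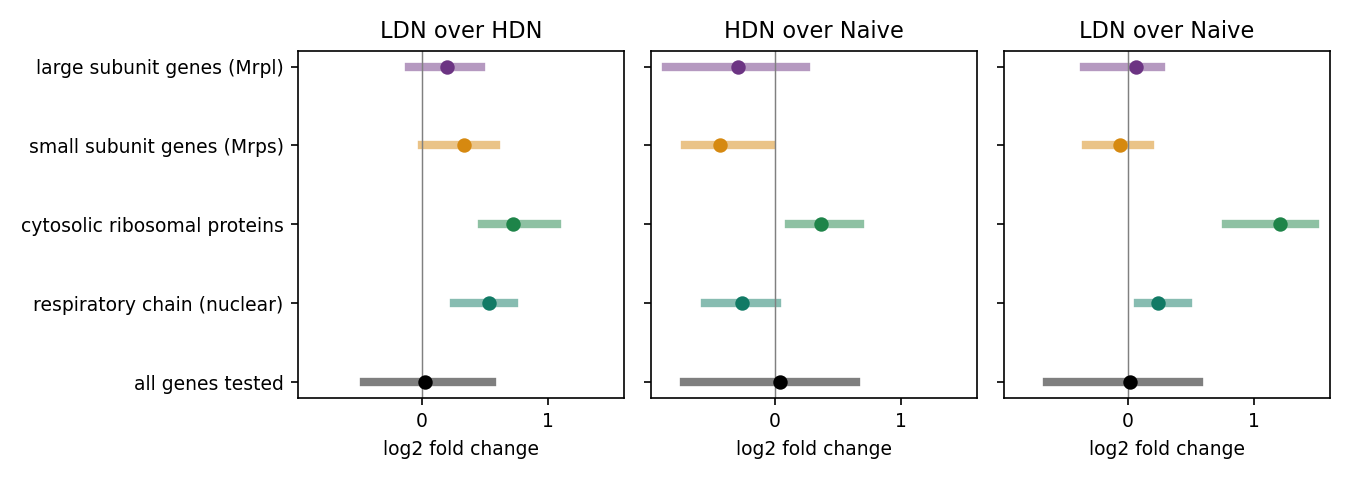
Median log2 fold change (point) with the lower and upper quartile (bar) of large and small subunit mitoribosomal genes, cytosolic ribosomal protein genes, nuclear-encoded respiratory chain genes and all genes tested, for LDN over HDN, HDN over Naive and LDN over Naive (panels). Members stand at 0.20 (large) and 0.34 (small) in LDN over HDN and at -0.29 and -0.43 in HDN over Naive, where the cytosolic set stands at 0.36.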

How the data were processed

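Neutrophil RNA was extracted with TRIzol and RNeasy columns and made into stranded polyA libraries with a KAPA kit, per the labels' protocols. CASAVA 1.8.2, Trimmomatic, STAR and DESeq2 1.16.1 were used, per the submitters' processing notes. Genome build, annotation and strandedness of the read counting were not given in the sources used here. The authors deposited raw counts per gene symbol, with 1 column per library and 0 columns left unmatched. Their tables of comparisons were not used here.

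Counts were tested with edgeR 4.0.16 in R 4.3.3 (filter on low counts by group, TMM scaling, robust quasi-likelihood fit with a group term over all 12 libraries). SEs are the log2 fold change over the root of the F statistic. The filter kept 10604 genes with nearly all counts. The script was tested on simulated data. The members, lists and tests were chosen with earlier results of these data known. Per comparison and subunit, up to 5 passing members each way whose log2 CPM averaged 1 or more were named, with members of set roles, the most and least abundant ones and up to 3 passing members of each list each way. Mrpl11 was not analysed here. The promoters of Mrpl52 and Mrpl17 were chosen after values were seen. Levels per kilobase used the main transcript in GENCODE M21.

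LDN and HDN share the replicate numbers 3, 4, 5 and 7. Deviations from the group means over all genes tested correlated at 0.31 to 0.76 between same-numbered libraries and at -0.61 to 0.41 between others. With a minimum of 0.1 the numbers were taken as pairs, but some other libraries passed it too, such as LDN 5 with HDN 3 (0.41). Over the members alone the ranges were -0.14 to 0.63 and -0.63 to 0.51. The main fit, which gave the SEs and adjusted p printed, held no term for pairs. No 2 libraries of a group agreed within sampling noise (chi-square per gene 3.44 to 199.6 over 18 pairs). Alternatives covered RLE scaling, total counts, library sizes without the 20 most abundant genes, DESeq2 1.42.0, no filter, fits of only the groups compared, the replicate block and leaving out each library.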

Additional observations from a re-analysis of the deposited data

Results flagged for a closer look

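In groups of 4 libraries, a library was picked out where its gap to the nearest other library passed Dixon's 95% critical value as a share of the group's range. This happened in 12 of 102 groups checked, where chance gives about 5%, or 1 in 20. HDN 4 was the library in 6 of them, each time as the highest of HDN. It stood at 13.7 CPM for Mrpl19, 5.82 CPM for Mrpl3, 9.76 CPM for Mrps18a, 0.922 CPM for Mrps18b, 18.4 CPM for Mrps18c and 8.84 CPM for Mrps35. The other HDN libraries reached at most 8.63, 3.28, 6.01, 0.420, 15.4 and 5.48 CPM for these genes.

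In LDN, LDN 5 was low for Mrpl13 at 2.30 CPM, where the others stood at 3.92 to 4.01 CPM, and high for Mrpl33 at 182.6 CPM, where the others stood at 156.8 to 160.4 CPM. LDN 4 was low for Mrpl24 at 32.6 CPM (others 35.6 to 36.0 CPM) and high for Mrpl48 at 13.9 CPM (others 12.1 to 12.4 CPM). LDN 7 was low for Mrpl52 at 11.2 CPM (others 14.8 to 15.4 CPM). In Naive, Naive 3 was high for Mrps26 at 17.0 CPM (others 13.7 to 14.2 CPM).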

How the results depend on the processing

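With total counts alone, 7 members were higher and 11 lower in LDN than in HDN, where 51.5% of all genes passed. The medians over all, large and small subunit members were -0.070, -0.10 and 0.033. With that scaling 2 members were higher in LDN than in Naive, with a large subunit median of -0.17. With the 20 most abundant genes left out of library sizes, 7 members were higher in HDN than in Naive, where 58.1% of all genes passed. Under the same setting 2 were higher in LDN than in Naive, with medians of -0.26, -0.23 and -0.36. The difference in the share of counts, taken without these 20 genes, was 0.00819 percentage points for LDN minus HDN, -0.0309 for HDN minus Naive and -0.0227 for LDN minus Naive. Fitting only LDN and Naive gave 10 higher members, where 59.8% of all genes passed. Leaving out 1 library at a time gave 11 to 27 higher members in LDN against HDN, with 27 without HDN 4, and 3 to 6 in LDN against Naive. In these fits 40.8% to 48.2% and 47.8% to 51.9% of all genes passed. With the replicate block, which takes LDN and HDN of the same number as pairs, 20 members were higher and 6 lower, where 57.2% of all genes passed.

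Signs turned for members near 0. In LDN against Naive, Mrpl10 was at -0.017 with RLE scaling and with DESeq2, -0.0094 with no filter, -0.19 with total counts and -0.25 without the 20 genes. Under these last settings Mrpl24 was at -0.16 and -0.22, Mrps30 at -0.18 and -0.24, and Mrpl45 at -0.048 without the 20 genes. In LDN against HDN with total counts, Mrpl33 was at -0.0019, Mrps12 at -0.060, Mrps18a at -0.080 and Mrps30 at -0.15. Leaving out libraries spanned -0.0055 to 0.47 for Mrps12 and -0.41 to 0.13 for Mrpl12 in LDN against HDN. In LDN against Naive it spanned -0.087 to 0.067 for Mrpl10, -0.062 to 0.10 for Mrps30, -0.32 to 0.32 for Mrps36 and -0.15 to 0.051 for Mrpl33. The cause of these changes was not tested. Named members kept direction and call in 315 of 330 values for LDN against HDN, 361 of 392 for HDN against Naive and 261 of 308 for LDN against Naive. These values include named members that did not pass, for which staying above the threshold counts as kept. Of the 20 members called in LDN against HDN, 9 lost their call with total counts. Members under 1 CPM rest on few reads, and their spread limits what could be detected.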

Other observations

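Beside the mitoribosomal proteins, 2 genes of the lists stood far above Naive in both blood groups, and they are named after their values were seen. Ddx28, an RNA helicase of mitoribosome assembly, was at 56.8 ± 14.8 CPM in LDN, 77.0 ± 28.1 CPM in HDN and 1.71 ± 0.232 CPM in Naive (SD, n = 4 each). Its log2 fold change in edgeR was 5.06 ± 0.30 in LDN over Naive and 5.49 ± 0.30 in HDN over Naive (adjusted p = 2.08e-08 and 5.62e-09). Nars2, the mitochondrial asparaginyl-tRNA synthetase, was at 17.0 ± 12.3 CPM in LDN, 32.5 ± 23.0 CPM in HDN and 0.588 ± 0.198 CPM in Naive. Between LDN and HDN neither passed (adjusted p = 0.152 and 0.199 in edgeR). In the other direction, Yars2, the mitochondrial tyrosyl-tRNA synthetase, was at 0.765 CPM in LDN, 0.440 CPM in HDN and 3.69 CPM in Naive. Exon overlap with other genes was looked at for the members only, not for Ddx28, Nars2 or Yars2. As above, tissue, tumour and column tag changed together between the blood groups and Naive.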
